A study of Mus musculus with 12 samples.

Results

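Integrins are the adhesion receptors with which a macrophage holds on to matrix, to other cells and to complement-coated particles. The mRNAs of 10 integrin chains were followed here in macrophages at rest and after inflammatory activation, each with and without an inhibitor of triacylglycerol synthesis. The 10 genes were taken by name, with no threshold on their values: Itgam, Itgax, Itgal and their common partner Itgb2, Itga4, Itga5, Itga6 and their common partner Itgb1, and Itgav and Itgb5. The count table held 47937 genes, of which 11760 passed the filter on low counts, and all 10 integrins were among them.

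The cells were macrophages grown for 7 days from the bone marrow of C57BL/6 mice with CSF-1 (20 ng/ml), the growth factor that drives macrophage differentiation. There were 4 groups of 3 RNA sequencing libraries. Resting macrophages (M0) carried no stimulus, and their labels give no time. Inflammatory macrophages received IFNγ (50 ng/ml) and LPS (20 ng/ml) for 18 h. The other two groups were M0 and IFNγ + LPS macrophages in the presence of 50 μM T863 for 18 h, a small-molecule inhibitor of DGAT1 (DGAT1i), the enzyme that makes triacylglycerol from diacylglycerol. For 2 of the 3 libraries of M0 with DGAT1i the description field names T864 or T865 and the source field T863. The source field was followed here. No group carried a genetic change, and DGAT1 inhibition rests on 1 compound at 1 dose.

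An integrin is a heterodimer of an alpha and a beta chain, and the pair decides what is bound. The beta 2 integrins belong to leukocytes: with Itgb2 (CD18), Itgam (CD11b) forms the complement receptor Mac-1, Itgax (CD11c) forms the related complement receptor p150,95, and Itgal (CD11a) forms LFA-1, which binds ICAMs on other cells. The beta 1 integrins bind matrix and cell-surface counter-receptors: with Itgb1 (CD29), Itga4 forms a receptor for VCAM-1 and fibronectin, Itga5 the classical fibronectin receptor and Itga6 a laminin receptor. Itgav pairs with several beta chains, and with Itgb5 it forms a vitronectin receptor that takes part in the uptake of apoptotic cells.

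The genes lie on 6 chromosomes of GRCm38, all coding for protein. Itgal, Itgam and Itgax stand in this order on the plus strand of chromosome 7, with 727.5 kb between Itgal (chr7:127296260-127335138) and Itgam (chr7:128062640-128118491) and 11.1 kb between Itgam and Itgax (chr7:128129547-128150657). Itga6, Itga4 and Itgav are on chromosome 2, Itgb2 on chromosome 10, Itga5 on chromosome 15, Itgb1 on chromosome 8 and Itgb5 on chromosome 16. Promoter sequence was read from a RefSeq table (GRCm38.p6) of 300-base windows, 250 bases before a gene's start and 50 from it on, in which 7 of the 10 genes had an entry. Itgal, Itgb2 and Itga6 had none. The stretches below end just before the start and are shown for the neighbours Itgam and Itgax, for Itga5, which rose with activation, and for Itgb5, which fell. They are chr7:128062490-128062639 (plus strand), chr7:128129400-128129546 (plus strand), chr15:103366792-103366941 (minus strand) and chr16:33829515-33829664 (plus strand). Capitals mark, on either strand, the letters GAGGAA of the macrophage lineage factor PU.1, GGGCGG of Sp1 and TGANTCA of AP-1, and no marked matches overlap.
Itgam: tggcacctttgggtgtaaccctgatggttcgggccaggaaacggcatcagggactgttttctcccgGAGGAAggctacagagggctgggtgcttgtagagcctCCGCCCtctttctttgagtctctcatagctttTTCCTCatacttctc
Itgax: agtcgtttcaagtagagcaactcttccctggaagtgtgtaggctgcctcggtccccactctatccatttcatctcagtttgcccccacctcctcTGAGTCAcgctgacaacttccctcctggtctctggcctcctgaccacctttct
Itga5: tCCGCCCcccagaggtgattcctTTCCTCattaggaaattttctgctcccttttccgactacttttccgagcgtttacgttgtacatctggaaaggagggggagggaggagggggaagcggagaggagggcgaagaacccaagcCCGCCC
Itgb5: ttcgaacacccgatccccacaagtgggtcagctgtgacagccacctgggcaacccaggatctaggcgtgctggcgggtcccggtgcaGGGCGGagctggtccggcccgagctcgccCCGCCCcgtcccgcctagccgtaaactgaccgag

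In the whole 300-base windows GAGGAA occurred in 4 of the 7 genes (Itgam, Itga5, Itgav and Itgb1), against 28.3% of all 32851 promoters of this length. GGGCGG occurred in 6 of the 7, all but Itgax, against 35.7% of promoters. TGANTCA was found in Itgax alone, against 7.81%. Neither the NF-kB letters GGG, any 2 bases and TTTCC, nor the interferon-stimulated response element, GAAA, any 2 bases and GAAA, was found in any of the 7 windows, and these letters are in 1.63% and 3.44% of promoters. A match is a description of letters and no proof of a bound site, and the absence of letters concerns these windows only.

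Library totals ranged from 4996014 to 6621671 reads, and levels are given in CPM, read counts relative to the TMM-scaled library total, in which 1 CPM stood for 4.28 to 7.58 reads. All 8 macrophage markers examined (among them Adgre1, Csf1r and Mertk) were detected in every group, with summed levels of 13122 to 14354 CPM in M0, 8246 to 8913 CPM with IFNγ + LPS, 16067 to 18085 CPM in M0 with DGAT1i and 7896 to 8860 CPM with both. Summed markers of T, NK and B cells reached at most 0.375 CPM, those of fibroblasts at most 2.11 CPM, and erythroid markers had 0 reads. All 8 markers of IFNγ + LPS activation rose with the stimulus. The summed level of 5 platelet and megakaryocyte markers was 186 to 191 CPM in M0, 63.2 to 66.1 CPM with IFNγ + LPS, 169 to 199 CPM in M0 with DGAT1i and 72.5 to 82.7 CPM with both, with Gp9 and Gp1bb at 0 reads in all groups. Pf4 made up nearly all of it, at 189 ± 2.54 CPM in M0 and 64.0 ± 2.14 CPM with IFNγ + LPS (mean ± SD, n = 3). The summed level of 10 neutrophil markers was 31.7 to 38.8 CPM in M0, 15.4 to 26.0 CPM with IFNγ + LPS, 23.0 to 29.4 CPM in M0 with DGAT1i and 63.2 to 81.5 CPM with both, with Ly6g and Retnlg at 0 reads in all groups. The macrophage, platelet and neutrophil sums were lower with IFNγ + LPS than in M0, as were 7 of the integrins below. The macrophage markers did not all fall. In the test described below, 3 of the 8 were higher with IFNγ + LPS and 5 lower, against 37.1% and 36.2% of all genes. Lyz2, most of this sum in M0, fell from 9641 ± 621 to 2956 ± 193 CPM. Adgre1 rose from 1316 ± 19.2 to 2706 ± 189 CPM, Mertk from 71.4 ± 6.60 to 459 ± 43.1 and Fcgr1 from 91.1 ± 5.30 to 857 ± 59.1. The part of the markers in the integrin values was not tested. The share of mitochondrial reads was 4.72 to 4.86% in M0, 3.88 to 4.21% with IFNγ + LPS, 5.56 to 6.19% in M0 with DGAT1i and 4.52 to 5.32% with both. In bulk RNA, fewer cells carrying a transcript and less of it per cell cannot be told apart.

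Inflammatory activation changed the mRNA level of each of the 10 integrins. All 10 genes differed between IFNγ + LPS and M0 macrophages, 3 higher and 7 lower, by the quasi-likelihood test of edgeR, with p-values adjusted by Benjamini-Hochberg over the 11760 genes. Itgal, Itga5 and Itgb2 rose, with log2 fold changes of 5.27, 1.91 and 1.27. Itga6 and Itgb5 fell most, with log2 fold changes of -4.76 and -3.11, and Itga4, Itgav, Itgb1, Itgax and Itgam fell by less. Change was the rule among all genes as well: 73.3% of genes tested were past the threshold of an adjusted p of 0.05, 37.1% higher and 36.2% lower. The 3 libraries of the groups did not overlap for any of the 10 integrins, as was the case for 75.4% of genes. The median log2 fold change of the integrins was -0.41, and that of all genes tested 0.01. The median size of the change, whatever its direction, was 1.24 for the integrins and 0.59 for all genes.

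**Figure D1:**
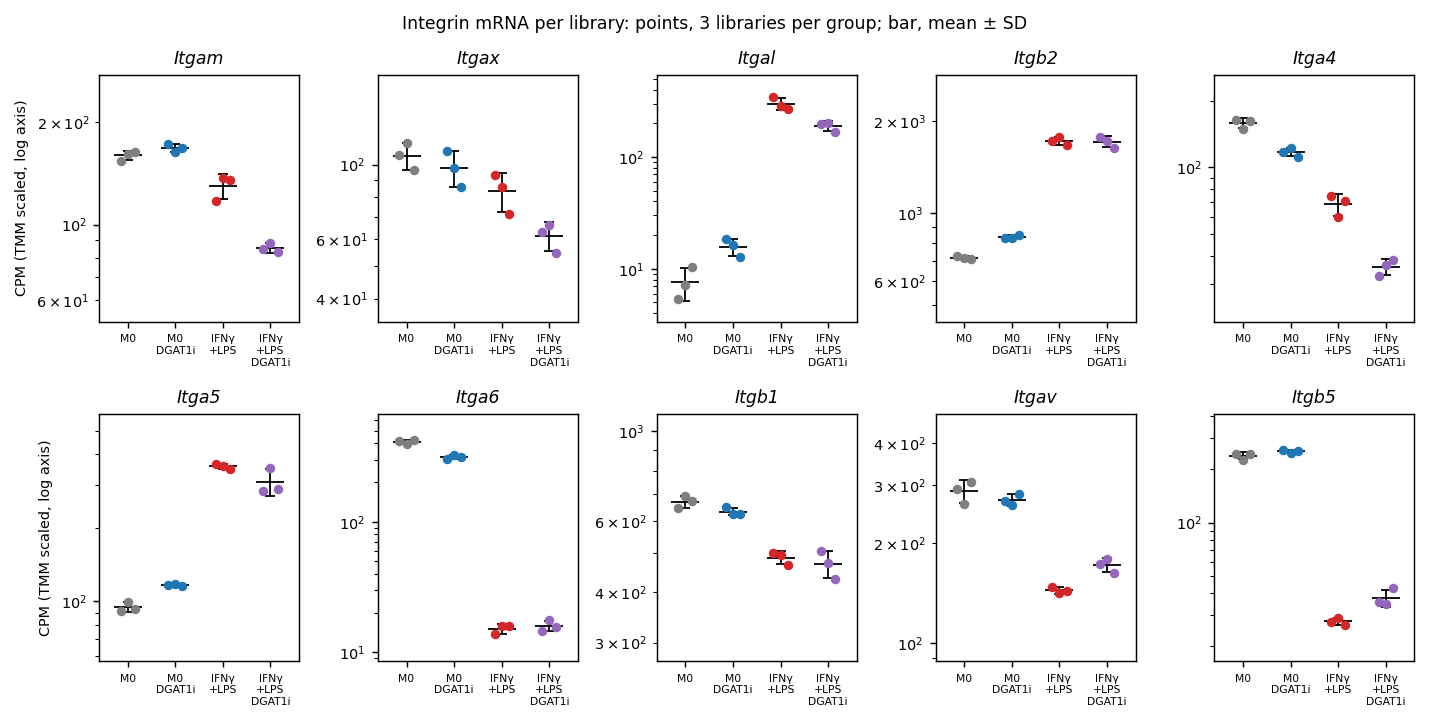
Level of each integrin mRNA in CPM (log axis, TMM scaled) by group. Points are the 3 libraries of a group, the long bar is their mean and the error bar the SD. Itgal spans 5.38 to 341 CPM and Itga6 13.7 to 420 CPM, in opposite directions between M0 and IFNγ + LPS macrophages.

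Of the beta 2 integrins, Itgal changed most. Itgal measured 5.38, 7.19 and 10.4 CPM in the M0 libraries and 341, 286 and 268 CPM in those with IFNγ + LPS. The chain of LFA-1 thus went from 37 to 75 reads a library at rest to 1433 to 1621 reads after activation. The log2 fold change was 5.27 (SE 0.19, adjusted p = 1.47e-09), a 38.7-fold higher level, and 96.9% of all genes tested changed by less. Itgb2, the shared partner, measured 723, 713 and 706 CPM in M0 and 1721, 1776 and 1675 CPM with IFNγ + LPS. All activated libraries were above all resting ones, by 2.41-fold (log2 fold change 1.27, SE 0.05, adjusted p = 4.38e-30).

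The other beta 2 partners went down. Itgam measured 154, 161 and 164 CPM in M0 and 117, 137 and 135 CPM with IFNγ + LPS. The groups were close but apart, and the log2 fold change was -0.30 (SE 0.06, adjusted p = 1.22e-05). Itgax measured 107, 116 and 96.1 CPM in M0 and 92.9, 85.7 and 71.2 CPM with IFNγ + LPS. The lowest resting library lay just above the highest activated one, with a log2 fold change of -0.36 (SE 0.10, adjusted p = 0.00594). These are small changes here: 28.5% of all genes changed by less than Itgam and 33.4% by less than Itgax. Itgax is used as a marker of dendritic cells, of which 7 other markers summed to 0.133 to 0.835 CPM in M0 and 14.4 to 19.6 CPM with IFNγ + LPS, with Siglech and Cd209a at 0 reads in the activated libraries. Clec9a, Xcr1 and Ccr7 made up most of the activated sum, at 8.17 ± 1.68, 5.53 ± 0.685 and 3.33 ± 1.48 CPM. These 3 were the dendritic cell markers tested, and all were called higher, against 37.1% of all genes. Their part in the result was not tested.

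Itgam carries a limit of its own. In GENCODE M21, 3450 of its 5024 exon bases (68.7%) are also exon of Gm49368 on the same strand (chr7:128062683-128128160), a gene model that runs from Itgam to just short of Itgax. Gm49368 itself held 0 to 5 reads in any library. A counter that drops reads lying on 2 genes would leave Itgam with the reads of the remaining 1574 bases, which would hold its level down alike in all groups as long as reads spread over the gene in the same way. How such reads were counted is not given in the sources used here. Itga4 shares 1124 exon bases with Cerkl and Itgav 634 with Gm13684, on the opposite strand in both cases.

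Among the beta 1 integrins, the alpha chains parted. Itga6 measured 414, 397 and 420 CPM in M0 and 13.7, 15.8 and 15.7 CPM with IFNγ + LPS. The laminin receptor chain thus went from 2853 to 3016 reads a library at rest to 65 to 88 reads after activation. Its level was 27.1-fold lower (log2 fold change -4.76, SE 0.08, adjusted p = 1.28e-49). Itga5 measured 91.2, 99.9 and 93.4 CPM in M0 and 366, 357 and 350 CPM with IFNγ + LPS. The fibronectin receptor chain was 3.77-fold higher in the activated cells (log2 fold change 1.91, SE 0.06, adjusted p = 1.95e-31).

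Itga4 measured 164, 149 and 162 CPM in M0 and 74.5, 59.6 and 70.8 CPM with IFNγ + LPS. The activated libraries lay well below the resting ones, with a log2 fold change of -1.22 (SE 0.07, adjusted p = 6.63e-23). Itgb1, the common beta chain, measured 646, 691 and 674 CPM in M0 and 500.3, 495 and 466 CPM with IFNγ + LPS. Its change was the smaller one, with a log2 fold change of -0.46 (SE 0.05, adjusted p = 2.42e-11), although Itga6 and Itga5 moved by far more and in opposite directions.

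Both vitronectin receptor chains fell. Itgav measured 291, 262 and 307 CPM in M0 and 148, 141 and 144 CPM with IFNγ + LPS, a 1.99-fold lower level (log2 fold change -0.99, SE 0.06, adjusted p = 2.07e-22). Itgb5 measured 246, 227 and 245 CPM in M0 and 27.6, 29.0 and 26.4 CPM with IFNγ + LPS. The beta chain fell further than its alpha partner, to an 8.64-fold lower level (log2 fold change -3.11, SE 0.07, adjusted p = 1.84e-41), and 91.5% of all genes changed by less. With library size as the only scaling, the median over all genes shifted to -0.46 on the log2 scale, and the log2 fold change was 0.80 for Itgb2, -0.77 for Itgam, -0.83 for Itgax and -0.93 for Itgb1. No integrin changed direction in this comparison under that scaling.

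In IFNγ + LPS macrophages, DGAT1i lowered 5 integrin mRNAs and raised 2. Itga4, Itgal, Itgam, Itgax and Itga5 were lower, with log2 fold changes from -0.93 to -0.21, and Itgb5 and Itgav were higher, with log2 fold changes of 0.44 and 0.25. The untreated IFNγ + LPS libraries are the ones of the comparison above. Itgb2, Itgb1 and Itga6 did not pass the test. Of all genes tested 29.8% were past the threshold, 13.5% higher and 16.3% lower. The groups did not overlap for 6 of the 10 integrins, against 39.7% of all genes. The median log2 fold change was -0.13 for the integrins and -0.01 for all genes.

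Itga4 responded most. It measured 32.3, 36.5 and 38.3 CPM in IFNγ + LPS macrophages with DGAT1i, against 59.6 to 74.5 CPM without. All treated libraries were lower, by 1.91-fold (log2 fold change -0.93, SE 0.09, adjusted p = 1.13e-12), and 93.4% of all genes changed by less. Itgal measured 196, 203 and 167 CPM with DGAT1i, against 268 to 341 CPM without. This is a 1.58-fold lower level (log2 fold change -0.66, SE 0.13, adjusted p = 0.00366) that was still far above the 5.38 to 10.4 CPM of M0. Itgam measured 85.0, 88.2 and 82.9 CPM with DGAT1i, against 117 to 137 CPM without, a log2 fold change of -0.60 (SE 0.07, adjusted p = 9.68e-11). The treated libraries were close to each other and below every other library of the study for this gene.

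Itgax measured 63.2, 66.3 and 54.6 CPM with DGAT1i, against 71.2 to 92.9 CPM without, a log2 fold change of -0.43 (SE 0.12, adjusted p = 0.011). Itga5 measured 283, 353 and 288 CPM with DGAT1i, against 349.7 to 366 CPM without. One treated library lay among the untreated ones, so that the groups overlapped, and the log2 fold change was -0.21 (SE 0.06, adjusted p = 0.00406). Without that library, number 2 of its group, the log2 fold change of Itga5 was -0.33 (adjusted p = 1.18e-05). Omitting any 1 library of the 12 gave -0.33 to -0.16, with a highest adjusted p of 0.0487 (without library 1 of the treated group).

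Of the integrins that rose, Itgb5 measured 35.6, 34.6 and 42.5 CPM with DGAT1i, against 26.4 to 29.0 CPM without. The level was 1.35-fold higher (log2 fold change 0.44, SE 0.10, adjusted p = 0.000272), which left it far below the 227 to 246 CPM of resting cells. Its partner Itgav measured 173, 179 and 163 CPM with DGAT1i, against 141 to 148 CPM without, with a log2 fold change of 0.25 (SE 0.06, adjusted p = 0.00105). Both chains of the vitronectin receptor thus moved toward their M0 level, and all 3 treated libraries were above the untreated ones for each.

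Neither of the abundant beta chains passed the test. Itgb2 measured 1779, 1728 and 1637 CPM with DGAT1i and 1675 to 1776 CPM without, with a 95% interval of the log2 fold change from -0.11 to 0.09 (adjusted p = 0.933). Itgb1 measured 505, 471 and 432 CPM with DGAT1i and 466 to 500.3 CPM without, with an interval from -0.16 to 0.06 (adjusted p = 0.516). For Itga6, at 14.6, 17.5 and 15.6 CPM with DGAT1i and 13.7 to 15.8 CPM without, the interval was wider, from -0.17 to 0.32 (adjusted p = 0.738), on 65 to 88 reads a library without the inhibitor. Markers of other cells moved in the same comparison. The neutrophil markers summed to more with DGAT1i than without (values above), with Ly6g, Elane and Retnlg at 0 reads in both groups and S100a8 and S100a9 making up most of the sum. All 4 neutrophil markers tested were called higher with DGAT1i, against 13.5% of all genes. Besides S100a8 and S100a9 these were Ngp (9.18 ± 1.56 against 1.35 ± 0.992 CPM) and Ltf (4.33 ± 2.15 against 0.932 ± 0.738 CPM). Without DGAT1i they had 22 and 15 reads in the 3 libraries together. The dendritic cell markers summed to 6.38 to 9.11 CPM with DGAT1i, and the part of either list in the integrin values was not tested.

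**Figure D2:**
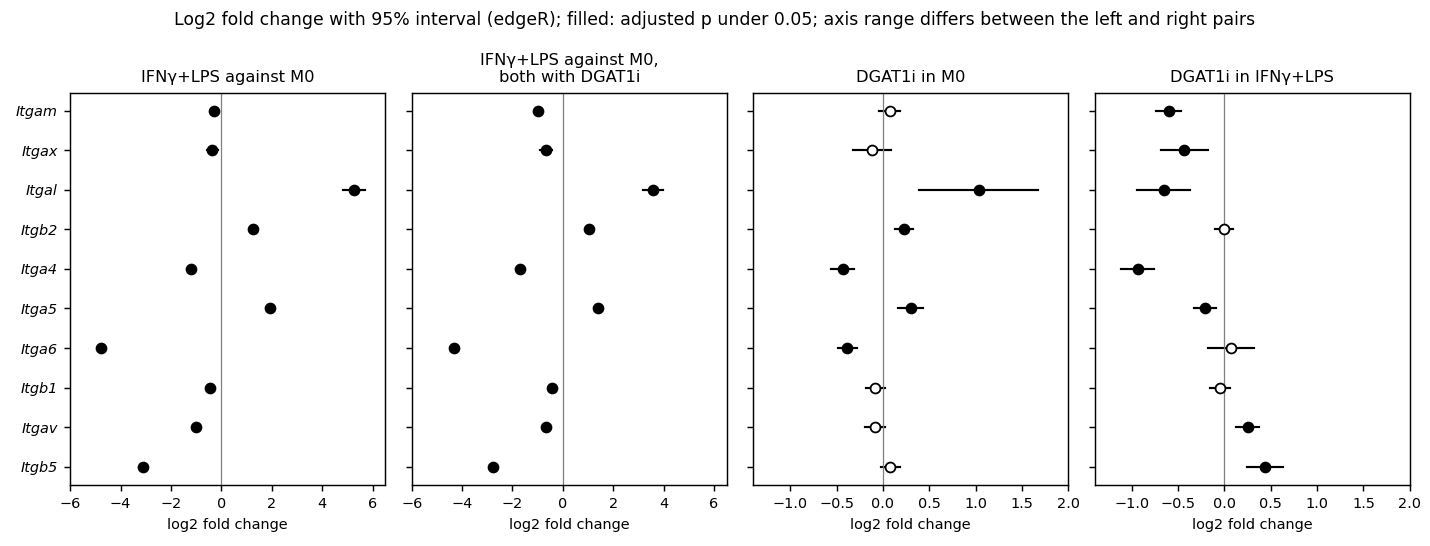
Log2 fold changes (points) with 95% intervals (lines) from edgeR for the 10 integrins in 4 comparisons, filled where the adjusted p was under 0.05. The horizontal axes of the left and right pairs differ in range. Every point is filled for IFNγ + LPS against M0, with and without DGAT1i, 5 are filled for DGAT1i in M0 and 7 for DGAT1i in IFNγ + LPS.

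In resting macrophages the inhibitor moved 5 integrins. Itgal, Itga5 and Itgb2 were higher with DGAT1i, and Itga4 and Itga6 lower, against 24.4% of all genes past the threshold, 11% higher and 13.4% lower. Groups did not overlap for 6 of the 10 genes, against 37.8% of all genes tested. The medians of the log2 fold changes, which were -0.01 for the integrins and 0.0037 for all genes, lay close to 0.

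Itga6 measured 305, 326 and 313 CPM in M0 with DGAT1i, against 397 to 420 CPM in M0. All treated libraries were lower (log2 fold change -0.38, SE 0.05, adjusted p = 1.24e-08). Itga4 measured 118, 122 and 112 CPM with DGAT1i, against 149 to 164 CPM without, with a log2 fold change of -0.43 (SE 0.06, adjusted p = 1.34e-07). It was the one integrin of the 10 that passed the test as lower with DGAT1i in both resting and activated cells. Itga5 measured 116, 118 and 115 CPM with DGAT1i, against 91.2 to 99.9 CPM without, a log2 fold change of 0.30 (SE 0.07, adjusted p = 0.000405).

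Itgb2 measured 832, 831 and 847 CPM in M0 with DGAT1i, against 706 to 723 CPM in M0. The 3 libraries of each group were tightly grouped, and the log2 fold change was 0.23 (SE 0.05, adjusted p = 0.000328). Itgal measured 18.3, 16.3 and 12.7 CPM with DGAT1i, which is 96 to 138 reads a library, against 5.38 to 10.4 CPM without. The level was 2.05-fold higher (log2 fold change 1.03, SE 0.28, adjusted p = 0.0267), but the call rests on single libraries. Leaving out M0 library 1 or 2, or DGAT1i-treated M0 library 1 or 2, gave adjusted p values of 0.0526, 0.0977, 0.0821 and 0.0769, with log2 fold changes from 0.84 to 1.01.

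The other 5 integrins did not pass the test in M0, although with library size as the only scaling Itgb1 and Itgav did (log2 fold change -0.14 in each, adjusted p = 0.0367 and 0.0459). Itgam measured 173, 163 and 168 CPM with DGAT1i and 154 to 164 CPM without, with a 95% interval of the log2 fold change from -0.04 to 0.18 (adjusted p = 0.392). Itgax measured 110.1, 98.0 and 86.0 CPM with DGAT1i and 96.1 to 116 CPM without (interval -0.33 to 0.09, adjusted p = 0.448). Itgb1 measured 649, 625 and 626 CPM with DGAT1i and 646 to 691 CPM without (interval -0.19 to 0.02, adjusted p = 0.269). The treated and untreated libraries overlapped for these 3 genes. Itgav measured 268, 260.2 and 282 CPM with DGAT1i and 262 to 307 CPM without (interval -0.19 to 0.02, adjusted p = 0.266). Itgb5 measured 258, 248 and 254 CPM with DGAT1i and 227 to 246 CPM without (interval -0.03 to 0.19, adjusted p = 0.291), and its groups did not overlap.

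The same activation, compared between cells that both had DGAT1i, again changed all 10 genes, 3 higher and 7 lower, each in the direction it had without the inhibitor. In this comparison 70.6% of all genes were past the threshold, 35.3% higher and 35.3% lower, and the groups of 72.5% of genes did not overlap, nor did those of any integrin. Log2 fold changes were 3.58 for Itgal (SE 0.18, adjusted p = 2.18e-08), 1.40 for Itga5 (SE 0.06, adjusted p = 9.72e-26) and 1.03 for Itgb2 (SE 0.05, adjusted p = 6.53e-26). They were -4.30 for Itga6, -2.76 for Itgb5, -1.72 for Itga4, -0.97 for Itgam, -0.67 for Itgax, -0.65 for Itgav and -0.43 for Itgb1. With library size as the only scaling they were 0.61 for Itgb2, -1.09 for Itgax, -1.07 for Itgav and -0.85 for Itgb1, and the direction of all 10 was kept. Itgam thus stood 1.96-fold lower in activated than in resting cells with the inhibitor, and 1.23-fold lower without it.

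Whether the inhibitor acted differently in the activated cells was tested as the difference between the log2 fold changes by DGAT1i in IFNγ + LPS and in M0. Past the threshold were 8 of the 10 integrins, 3 with a higher and 5 with a lower response in IFNγ + LPS, against 18.5% of all genes tested, 8.66% higher and 9.8% lower. Itgal differed most, with a call in M0 that rested on single libraries (values above) and a lower level in IFNγ + LPS, and a difference of -1.69 (SE 0.31, adjusted p = 0.00428). Itgam had a difference of -0.68 (SE 0.09, adjusted p = 2.68e-08), with no call in M0 and a fall in IFNγ + LPS. Itga5 was called higher in M0 and lower in IFNγ + LPS (difference -0.51, SE 0.09, adjusted p = 1.81e-05). For Itga4, which fell in both, the fall was larger in IFNγ + LPS by 0.50 on the log2 scale (difference -0.50, SE 0.11, adjusted p = 0.00048).

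For Itgb2, which was higher in M0 and not past the test in IFNγ + LPS, the difference was -0.24 (SE 0.07, adjusted p = 0.0123). In the other direction, Itga6 fell with DGAT1i in M0 and did not pass the test in IFNγ + LPS, with a difference of 0.46 (SE 0.13, adjusted p = 0.0103). The vitronectin receptor chains, called higher in IFNγ + LPS and not past the test in M0, had differences of 0.34 for Itgav (SE 0.08, adjusted p = 0.00164) and 0.35 for Itgb5 (SE 0.11, adjusted p = 0.0154). Itgax and Itgb1 did not differ past the threshold (adjusted p = 0.183 and 0.827), with 95% intervals from -0.64 to 0.01 and from -0.12 to 0.18. The Itgax difference depended on the setting: it was -0.32 with the replicate number as a block (adjusted p = 0.0134), and passed without a filter on low counts (0.0111), without IFNγ + LPS library 3 (0.0245) and without library 3 of M0 with DGAT1i (0.0308). That of Itgb2 had an adjusted p of 0.0501 with library size as the only scaling. The differences of Itgb5 and Itga6 depend on single libraries: without IFNγ + LPS library 3 or library 3 with DGAT1i the adjusted p of Itgb5 was 0.0602 or 0.12, and 0.0657 without a filter on low counts, and without library 2 of IFNγ + LPS with DGAT1i that of Itga6 was 0.0904.

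**Figure D3:**
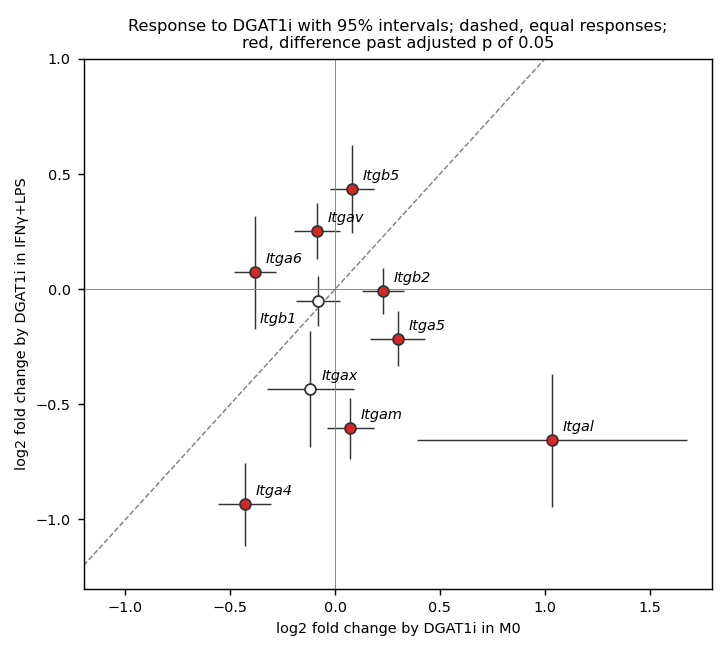
Log2 fold change by DGAT1i in M0 (horizontal axis) against that in IFNγ + LPS (vertical axis) for each integrin, with 95% intervals. Red points had a difference between the responses past an adjusted p of 0.05, and the dashed line marks equal responses. Itgal lies furthest from the line, at 1.03 and -0.66, and Itgb1 close to it.

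Levels of different genes were compared per kilobase of exon union (CPM per kb), since the transcripts differ in length. On this scale Itgb2 came first and Itgb1 second in all 4 groups. In M0 they measured 234 ± 2.73 and 164 ± 5.64 CPM per kb (mean ± SD, n = 3), followed by Itgb5 at 67.4 ± 3.02, Itga6 at 45.5 ± 1.35, Itgam at 31.8 ± 1.03, Itgav at 26.7 ± 2.09, Itgax at 22.1 ± 2.05, Itga5 at 19.2 ± 0.911, Itga4 at 11.3 ± 0.583 and Itgal at 1.17 ± 0.391. Of neighbours in this order only Itgax and Itga5 overlapped. With IFNγ + LPS the order was Itgb2 at 565 ± 16.7, Itgb1 at 119 ± 4.53, Itga5 at 72.5 ± 1.69, Itgal at 45.4 ± 5.79, Itgam at 25.8 ± 2.17, Itgax at 17.3 ± 2.3, Itgav at 13.4 ± 0.312, Itgb5 at 7.78 ± 0.362, Itga4 at 4.89 ± 0.557 and Itga6 at 1.67 ± 0.135 CPM per kb, with no overlap between neighbours. Itgal thus went from rank 10 to rank 4, and Itga6 from rank 4 to rank 10.

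In M0 with DGAT1i the order was that of M0 except that Itga5 (23.7 ± 0.304 CPM per kb) stood above Itgax (20.4 ± 2.51), and Itga6 (34.9 ± 1.13) overlapped with Itgam (33.4 ± 0.925). With IFNγ + LPS and DGAT1i, Itgav (15.2 to 16.7) overlapped with Itgam (16.5 to 17.6) and Itgb5 (10.6 ± 1.21) with Itgax (12.8 ± 1.26), while the first 4 and the last 2 places were those without the inhibitor. If Itgam had been counted only on the exon that it does not share with Gm49368, its level would be 101 CPM per kb in M0, next after Itgb1, and 82.3 with IFNγ + LPS. The exon union of Itga6 is 2.09 times its longest transcript and that of Itgav 1.52 times, so that the length used sets their level. Per kb of the longest transcript, Itga6 measured 95.2 in M0, above Itgb5 at 73.0, and Itgav stood above Itgam in M0 (40.7 against 34.1), in M0 with DGAT1i (38.3 against 35.8) and with IFNγ + LPS and DGAT1i (24.3 against 18.2). In this last group Itga6 also stood just above Itga4 on that length (3.70 against 3.66).

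The make-up of the beta 2 family was described by the share of each alpha chain in the summed CPM per kb of Itgam, Itgax and Itgal, which does not depend on the scaling of libraries. In M0 the shares were 57.7 ± 2.15% Itgam, 40.1 ± 2.81% Itgax and 2.12 ± 0.729% Itgal (mean ± SD, n = 3). With IFNγ + LPS they were 29.3 ± 4.14%, 19.5 ± 1.35% and 51.2 ± 3.24%, so that Itgal made up the largest share. In M0 with DGAT1i the share of Itgal was 4.25 ± 0.551%, and with IFNγ + LPS and DGAT1i it was 49.1 ± 1.16%, with 29.1 ± 1.58% Itgam and 21.8 ± 0.433% Itgax. Shares of all 3 chains did not overlap between M0 and IFNγ + LPS, with or without DGAT1i, and the exact permutation test (two-sided, 3 against 3) gave p = 0.1, which is the smallest it can give. Adjusted over the 20 tests of shares and ratios this is 0.143, so none can pass 0.05. With Itgam counted on its unshared exon only, Itgam would hold 81.3% in M0 and 56.8% with IFNγ + LPS, where Itgal would hold 31.3%, a choice made after seeing the data.

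The alpha chains were also set against a beta chain with which they pair. The log2 ratio of summed Itgam, Itgax and Itgal to Itgb2 (CPM per kb) was -2.09 ± 0.06 in M0, -2.67 ± 0.09 with IFNγ + LPS, -2.29 ± 0.10 in M0 with DGAT1i and -3.27 ± 0.07 with both (mean ± SD, n = 3). With Itgam counted on its unshared exon only, the ratio was -0.91 ± 0.05, -1.96 ± 0.01, -1.08 ± 0.07 and -2.55 ± 0.06 in these groups, further apart between M0 and IFNγ + LPS. Per kb of exon union, none of the 4 comparisons overlapped (exact permutation test, two-sided, p = 0.1, adjusted 0.143 in each). With DGAT1i in IFNγ + LPS the ratio was lower by 0.59 on the log2 scale, as the alpha chains fell while Itgb2 did not pass the test. Itga4, Itga5, Itga6 and Itgav were set against Itgb1 together, although Itgav also pairs with Itgb5 and Itga4 with Itgb7. Their log2 ratio to Itgb1 was -0.68 ± 0.08 in M0, -0.37 ± 0.04 with IFNγ + LPS, -0.75 ± 0.05 in M0 with DGAT1i and -0.48 ± 0.18 with both. Activated and resting libraries did not overlap (p = 0.1, exact permutation test), but the difference of 0.31 per kb of exon union became -0.17 per kb of the longest transcript, so its direction depends on the lengths used.

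**Figure D4:**
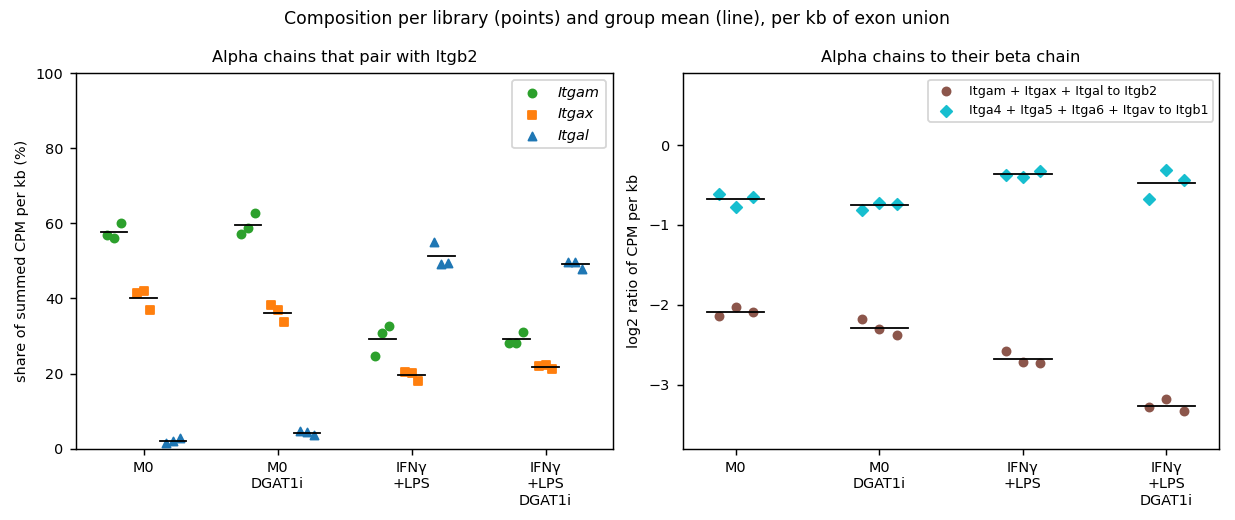
Left, share (%) of Itgam, Itgax and Itgal in their summed CPM per kb of exon union; right, log2 ratio of the alpha chains to Itgb2 or to Itgb1. Points are libraries, 3 per group, and lines are group means. Itgal holds 1.52 to 2.93% in M0 and 49.1 to 54.9% with IFNγ + LPS, and the log2 ratio to Itgb2 is lowest with IFNγ + LPS and DGAT1i.

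Of 16 other integrin genes, 7 passed the filter on low counts. With IFNγ + LPS 3 were higher and 3 lower, with a median log2 fold change of -0.69, beside 0.01 over all genes tested. Itgb7, which pairs with Itga4, rose from 9.52 ± 0.777 to 72.0 ± 5.92 CPM (log2 fold change 2.92, SE 0.11, adjusted p = 3.83e-31), in the cells in which Itga4 fell. Itga9 and Itgb3, the latter another partner of Itgav, fell (log2 fold changes -1.36 and -1.24). The other three called were the scarce Itga1 and Itgb8 (higher) and Itga8 (lower), which the naming rule leaves out for their level and which are named for completeness. With DGAT1i in IFNγ + LPS Itgb3 was the only one called, at 13.1 ± 2.19 against 7.39 ± 0.973 CPM (log2 fold change 0.82, SE 0.17, adjusted p = 0.000195). In M0 the inhibitor also raised Itgb3, to 28.6 ± 1.52 from 17.5 ± 1.11 CPM (log2 fold change 0.70, SE 0.11, adjusted p = 7.57e-07), and the difference between its responses was 0.11 (adjusted p = 0.755). Itga9 was the other one called in M0 with DGAT1i, at a log2 fold change of 0.41 (SE 0.10, adjusted p = 0.00186). Itgb3 and Itga9 are below the size that the naming rule asks for in these comparisons and were named after their values were seen. Among all genes tested 73.3%, 29.8% and 24.4% were past the threshold in the 3 comparisons. Itgae, Itgb4 and Itga3 had at most 4 reads in any library.

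Proteins that activate integrins or link them to actin were measured by 36 genes, of which 32 were tested. With IFNγ + LPS 19 were higher and 12 lower, with a median log2 fold change of 0.41. Among the largest, the kinase Src (3.12) and the focal adhesion protein Zyx (2.65) rose, while Dab2, an adaptor of integrin endocytosis, Actn1 and Vcl, which tie integrins to actin, fell (-5.08, -2.39 and -2.05). Among those genes, DGAT1i in IFNγ + LPS gave 4 higher and 13 lower, with a median log2 fold change of -0.16, and DGAT1i in M0 gave 2 higher and 10 lower, with a median of -0.06. Of all genes tested, 73.3% were past the threshold with IFNγ + LPS, 29.8% with DGAT1i in IFNγ + LPS and 24.4% with DGAT1i in M0, with medians of 0.01, -0.01 and 0.0037. No gene of the list that passed the test reached a log2 fold change of 1 in size with DGAT1i in either cell state. The difference between the DGAT1i responses was 1.09 for Zyx (SE 0.08, adjusted p = 4.75e-15) and 1.06 for Dab2 (SE 0.18, adjusted p = 0.000734).

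Integrin ligands were looked up in a list of 25 genes, of which 12 were tested. With IFNγ + LPS 5 were higher and 7 lower, with a median log2 fold change of -0.59. C3, whose fragment iC3b is the ligand of Mac-1, rose from 4.5 ± 0.517 to 3912 ± 129 CPM (log2 fold change 9.76, SE 0.09, adjusted p = 2.1e-61), Icam1, a ligand of LFA-1, rose with a log2 fold change of 4.87, and Thbs1, a matrix glycoprotein, with one of 4.59. Lamb2, a laminin chain, fell (-4.22, from 213 to 8 reads in the 3 libraries of a group together), as did the laminin receptor chain Itga6. In IFNγ + LPS macrophages DGAT1i gave 2 higher and 6 lower ligands, with a median log2 fold change of -0.29. Vcam1, the cell-surface ligand of Itga4, was lower at 19.0 ± 2.82 against 44.8 ± 4.27 CPM (log2 fold change -1.23, SE 0.16, adjusted p = 3.33e-06), and so were Thbs1 (-1.22) and the LFA-1 ligand Icam2 (-1.10, SE 0.35). Icam2 was scarce, with 24 reads in the 3 libraries with DGAT1i together and 58 in those without. In M0 the inhibitor gave 1 higher and 4 lower, with a median of 0.0016. The shares of all genes past the threshold were 73.3%, 29.8% and 24.4% in these 3 comparisons, with medians of 0.01, -0.01 and 0.0037.

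All 15 surface partners of integrins, mostly tetraspanins and receptors that associate with them, were tested. With IFNγ + LPS 7 were higher and 5 lower, with a median log2 fold change of 0.35. Cd47, which associates with integrins and binds Thbs1, rose (2.04), as did the beta 1-associated transporter chain Slc3a2 (1.69) and the tetraspanin Cd82 (1.31), whereas the tetraspanins Cd9 and Cd81 and the scavenger receptor Cd36 fell (-2.35, -1.64 and -1.23). With DGAT1i in IFNγ + LPS 7 were higher and 2 lower, with a median of 0.14, and Cd9 rose from 42.5 ± 1.08 to 85.7 ± 4.56 CPM (log2 fold change 1.01, SE 0.08, adjusted p = 5.97e-16). With DGAT1i in M0 6 were higher and 3 lower, with a median of 0.25. Over all genes tested, 37.1% were higher and 36.2% lower with IFNγ + LPS, 13.5% and 16.3% with DGAT1i in IFNγ + LPS, and 11% and 13.4% with DGAT1i in M0, with medians of 0.01, -0.01 and 0.0037.

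For each integrin, the genes whose log2 CPM followed it most closely over the 12 libraries were found among 10172 genes, as a description, since 4 group means carry most of the variation. Pearson's r was 0.993 between Itgam and the chemokine gene Ccl4, next to which came Txlna (0.98) and Rps6ka2 (0.977). Itgax was followed less closely, with 0.958 for Tmem181b-ps and 0.95 for Ybx3. Itgal was closest to Eif1a (0.996) and Mpeg1 (0.995), the gene of a pore-forming protein of macrophages, and Itgb2 to Rnf14 (0.998). Itga5 was closest to Peli1 and Tnfaip3 (both 0.996), regulators of NF-kB signalling, Itga6 to the mannose receptor gene Mrc1 (0.999), Itga4 to Frmd4b (0.992) and Itgb1 to Paics (0.993). Itgav was closest to Trem2 (0.99) and Itgb5 to Cd93 (0.998), both surface receptors. Genes measured in the same libraries share their depth and scaling, and likeness over 4 groups says nothing of shared control.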

How the data were processed

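RNA was sequenced from 12 libraries of bone marrow-derived macrophages. The authors deposited 1 table of raw read counts per gene (whole numbers, not normalized), with 47937 Ensembl gene IDs. Their processing notes name GRCm38 and DESeq2 as build and tool. Aligner, counter and strand setting: not given in the sources used here. The labels name an NEBNext low-input kit for the libraries and the study's methods a TruSeq stranded kit, so strand could not be settled. Totals were 4996014 to 6621671 reads per library, and 25746 genes had 0 reads throughout.

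IDs without their version were matched to symbols in GENCODE M21 (GRCm38), which held 47310 of them. The analysis used edgeR 4.0.16 (with limma 3.58.1) under R 4.3.3. In it filterByExpr kept 11760 genes, libraries were scaled by TMM, and glmQLFit (robust) was fitted to all 12 libraries with 1 mean per group. Contrasts were tested with glmQLFTest, with Benjamini-Hochberg adjustment over all genes tested and a threshold of 0.05. Intervals are at 95%. The common biological coefficient of variation was 0.0507. Shares and ratios were compared by exact permutation tests (scipy 1.17.1, Python 3.11.15), for which 3 against 3 libraries cannot go below p = 0.1. The scripts were tested on simulated data. Near-identical copies were searched with BLAST 2.17.0 at 95% identity. Plots were drawn with matplotlib 3.10.9.

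Groups came from the sample labels, in which the libraries of a group are numbered. No source used here says whether these libraries came from separate mice or cultures, so p-values measure the spread between these samples. The integrins and the gene lists were chosen with earlier results of these data known. Every integrin is named; from other lists, genes past the threshold with a log2 fold change of at least 1 in size and an average log2 CPM of at least 2, at most 3 higher and 3 lower per list and comparison (a few others are marked where named); and for likeness the 3 highest Pearson r. Some items that this rule or the promoter search covers are not reported here. Alternatives were RLE scaling or library size only, no filter or a mean CPM of at least 1, DESeq2 1.42.0, fits of only the libraries compared, the replicate number as a block, an adjusted p of 0.1, the longest transcript as length, and each library left out in turn.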

Additional observations from a re-analysis of the deposited data

Results flagged for a closer look

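For 8 integrins the response to DGAT1i in IFNγ + LPS macrophages differed from that in M0 macrophages in a test of the difference itself, which 18.5% of all genes tested passed. The log2 difference between the responses was -1.69 for Itgal, -0.68 for Itgam, -0.51 for Itga5, -0.50 for Itga4 and -0.24 for Itgb2, all toward a lower response in IFNγ + LPS. It was 0.46 for Itga6, 0.35 for Itgb5 and 0.34 for Itgav, toward a higher one. The calls of Itgb2, Itga6 and Itgb5 were lost under some alternatives (adjusted p = 0.0501 for Itgb2, 0.0904 for Itga6, and 0.0602, 0.0657 and 0.12 for Itgb5). Itga5 had calls of opposite direction in the resting and the activated cells. So did Itgal, but its call in M0 was lost without any 1 of 4 libraries (adjusted p = 0.0526 to 0.0977).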

How the results depend on the processing

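The number of integrins past the threshold stayed at 10 for IFNγ + LPS against M0, with and without DGAT1i, under all alternatives, and no integrin past the threshold reversed under any. The values that reversed had missed the threshold or had no test that could pass it, and the cause was not tested except for the length. For DGAT1i in IFNγ + LPS, the log2 fold change of Itgb2 was 0.0119 when only the libraries compared were fitted, and leaving out 1 library gave -0.0364 to 0.0206 for Itgb2 and -0.00917 to 0.13 for Itga6. The difference between the DGAT1i responses of Itgb1 was -0.00649 without a filter and -0.0264 to 0.0827 with 1 library left out. The difference in the share of Itgam by DGAT1i in IFNγ + LPS was -2.51 to 1.43 percentage points with 1 library left out. Per kb of the longest transcript, the log2 ratio of summed Itga4, Itga5, Itga6 and Itgav to Itgb1 differed by -0.17 between IFNγ + LPS and M0 and by -0.13 with DGAT1i in both.

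Some calls moved. The difference between the DGAT1i responses of Itgax had an adjusted p of 0.0111 without a filter, 0.0245 without IFNγ + LPS library 3 and 0.0308 without library 3 of M0 with DGAT1i. That of Itgb2 had an adjusted p of 0.0501 with library size only, and that of Itgb5 of 0.0657 without a filter. In M0 with DGAT1i, Itgb1 and Itgav passed with library size only (adjusted p = 0.0367 and 0.0459). Library size only moved the median of all genes to -0.46 for IFNγ + LPS against M0 and to -0.43 with DGAT1i in both, and the called genes from 4361 higher and 4254 lower to 2340 and 7002, and from 4152 and 4151 to 2333 and 6799. For DGAT1i in M0 it moved the share of higher among called genes from 45.2 to 29.7%, and for the difference between the responses from 46.9 to 58.2%. Deviations of same-numbered libraries of different groups correlated at -0.02 to 0.07 (median 0.0115), over 0.1 in 0 of 18 pairs. Those of libraries with different numbers correlated at -0.06 to 0.04 (median -0.0045, 36 pairs). Correlations this weak do not settle whether the numbers pair the samples. With the replicate block the log2 difference of Itgax was -0.32 (adjusted p = 0.0134), which made 9 integrins past the threshold there, and the other four comparisons kept their counts of integrins. Depth limits the scarce transcripts, Itgal in M0 (37 to 75 reads) and Itga6 with IFNγ + LPS (65 to 88 reads).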
